A study of Homo sapiens with 12 samples.

Results

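The 9 genes described here are LIN28B, a set of oncofetal genes known as let-7 targets (HMGA1, HMGA2, IGF2BP1, IGF2BP2 and IGF2BP3), the RNases DICER1 and DIS3L2, and the neuroblastoma risk gene LMO1. They were taken by gene symbol from a table of 27514 listed genes, and each symbol matched 1 row. Of the 9, 8 reached a mean of at least 1 CPM, a read count scaled to the size of its library, over the 12 samples and were tested; HMGA2 did not. LMO1 only just passed, with a mean of 1.02 CPM, and reached it through its levels in the groups that received siHAND2.

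The samples are RNA-seq libraries of IMR32, an established neuroblastoma cell line in which MYCN is amplified. The cells received siRNA by electroporation and were cultured for 72 h before total RNA was extracted. Of the 4 groups of 3 samples, siCtrl carried a control siRNA (named siCTR in the labels), siMYCN the siRNA siMYCN_2, siHAND2 the siRNA siHAND2_3, and siMYCN+siHAND2 the pair named siM2+siH2_3. MYCN is the proto-oncogenic transcription factor of this tumour type, and HAND2 is a transcription factor of sympathetic neuroblasts. Each knockdown therefore rests on 1 siRNA per target as named, in 1 cell line. The labels do not say whether the 3 samples of a group are separate cultures, so p-values measure the spread between these samples, which may be technical.

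LIN28B is an RNA-binding protein that holds back the maturation of let-7 microRNAs. It binds their precursors and, for its paralogue LIN28A, recruits the uridylases TUT4 and TUT7, after which the exonuclease DIS3L2 degrades the tailed precursor. A precursor that escapes is cut by DICER1 into mature let-7, which represses mRNAs whose 3′ UTR pairs with its seed. LIN28B, HMGA2 and the IGF2BP genes are such mRNAs and are typical of fetal tissue. LMO1 is a LIM-domain protein without a DNA-binding domain of its own that bridges transcription factors through LDB1, and common variants near LMO1 and LIN28B are linked to neuroblastoma risk.

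The mature let-7 sequences are shown because every target site described here is a match to their shared seed, in capitals (bases 2 to 8 from the 5′ end). RefSeq (GRCh38.p14) held 9 mature let-7 family members from 12 loci.
hsa-let-7a-5p: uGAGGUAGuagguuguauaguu
hsa-let-7b-5p: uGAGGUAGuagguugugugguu
hsa-let-7e-5p: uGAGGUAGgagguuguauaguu
hsa-let-7f-5p: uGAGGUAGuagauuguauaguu
hsa-let-7i-5p: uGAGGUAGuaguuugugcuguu
hsa-miR-98-5p: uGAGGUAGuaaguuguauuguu
All 9 carry the seed GAGGUAG and differ in the 3′ part, so they form 1 seed family.

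The complement of that seed, CTACCTC, was searched on the transcript strand in 1 canonical transcript per gene (GENCODE v44 on GRCh37). A match followed by A, which pairs with the seed and has an A opposite the first base, was counted as a match of 8 bases and the others as 7. The sites below are from the transcripts, written 5′ to 3′ with the match in capitals. They are a selection that holds at least 1 site of each gene with a match, and sites of 8 and of 7 bases for LIN28B and HMGA2.
LIN28B site 1 (chr6:105526688-105526709, +): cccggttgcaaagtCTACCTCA
LIN28B site 2 (chr6:105529115-105529136, +): actgatgatagtaaCTACCTCt
LIN28B site 3 (chr6:105529297-105529318, +): tttacagcaaaaggCTACCTCA
HMGA2 site 1 (chr12:66357079-66357100, +): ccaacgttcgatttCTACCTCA
HMGA2 site 2 (chr12:66358314-66358335, +): cccactactcaataCTACCTCt
IGF2BP1 site 1 (chr17:47128424-47128445, +): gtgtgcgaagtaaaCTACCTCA
IGF2BP1 site 3 (chr17:47131715-47131736, +): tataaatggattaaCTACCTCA
IGF2BP2 site 1 (chr3:185362008-185362029, -): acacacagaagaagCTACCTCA
IGF2BP3 site 1 (chr7:23351414-23351435, -): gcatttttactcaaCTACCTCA
HMGA1 site 1 (chr6:34213607-34213628, +): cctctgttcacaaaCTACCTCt
DICER1 coding site 2 (chr14:95570085-95570106, -): acccgtgcaaccaaCTACCTCA
The first 10 lie in 3′ UTRs and the last in the coding sequence of DICER1. All are in exons.

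LIN28B, HMGA2 and IGF2BP1 each held 4 matches in the 3′ UTR, and HMGA1, IGF2BP2 and IGF2BP3 held 1 each. Of 19085 canonical transcripts, 9.74% had at least 1 match in the 3′ UTR and 12 had 4 or more, 3 of them the genes named above. The 3′ UTRs of LIN28B (4549 bases) and IGF2BP1 (6701 bases) are also long; among transcripts with a 3′ UTR of at least 2 kb the share with a match was 20.9%. DICER1, DIS3L2 and LMO1 had none there. DICER1 carried 4 in its coding sequence, a number reached by 16 transcripts in all, and LIN28B carried 1 there. Since the genes were picked as known let-7 targets, these counts describe them and test nothing.

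**Figure D1:**
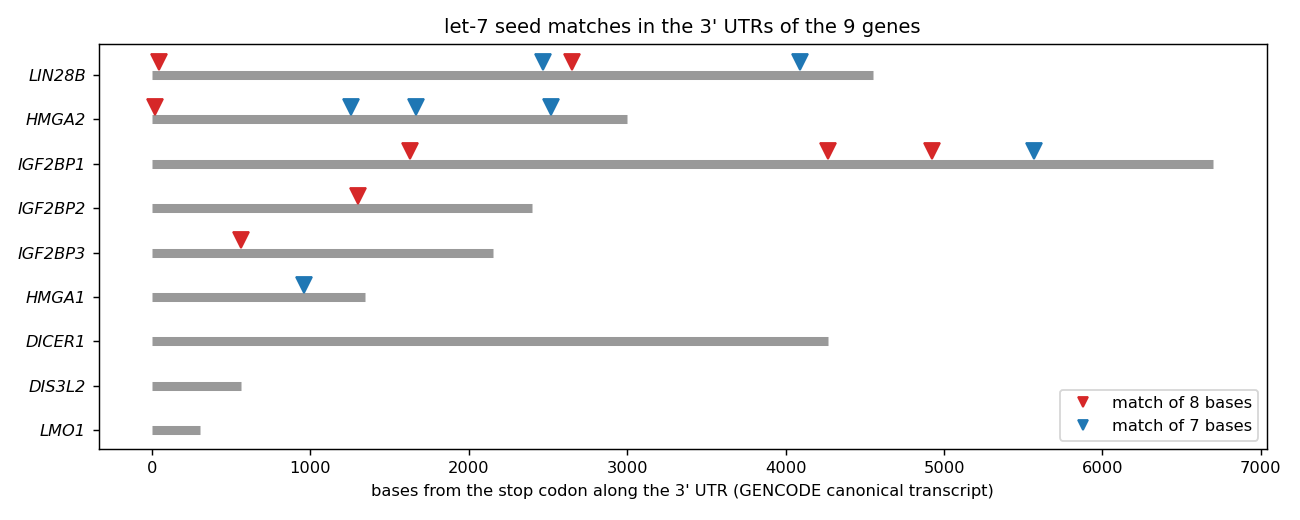
Matches to the let-7 seed along the 3′ UTR of each of the 9 genes. The x axis is the distance in bases from the stop codon, grey bars are the 3′ UTRs to scale, and triangles are matches of 8 (red) or 7 bases (blue). LIN28B, HMGA2 and IGF2BP1 have 4 matches each, while DICER1, DIS3L2 and LMO1 have none.

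No mature microRNA was measured. The rows of the 12 let-7 hairpins were at 0 in all 12 samples, so let-7 itself is not described by these libraries.

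MYCN fell from 1009 ± 42.6 CPM (SD, n = 3) in siCtrl to 682 ± 22.8 in siMYCN and 482 ± 64.3 in siMYCN+siHAND2, and HAND2 from 239 ± 15.3 to 62.3 ± 7.06 in siHAND2 and 73.5 ± 11.1 in the combined group. HAND2 was higher in siMYCN, at 326 ± 7.50 CPM (0.44, limma adjusted p = 0.00618), and was called on both scales. MYCN was at 849 ± 48.7 CPM in siHAND2, below every siCtrl sample on the deposited scale; the estimate of -0.25 was not called (limma adjusted p = 0.0860), and the groups overlapped after rescaling. Of 9 neuroblast markers, 7 or 8 were at or above 1 CPM in each sample. Their summed level was 749 to 803 CPM in siCtrl, 1009 to 1038 in siMYCN, 669 to 717 in siHAND2 and 512 to 794 in the combined group, and 6 of the 8 tested were called higher in siMYCN, where 17.4% of all genes were. In siHAND2, 2 of the 8 were called higher and 4 lower, against 12.3% and 30.4% of all genes. The combination gave the same counts, against 17.4% and 50.1%. Tyrosine hydroxylase (TH) was at 0.120 ± 0.0775 CPM in siCtrl and HAND2 is itself a marker on that list. Of 10 Schwann cell and fibroblast markers, 3 or 4 were at or above 1 CPM; their summed level was 42.3 to 48.7 CPM in siCtrl and 12.8 to 20.2 CPM in the groups with siHAND2, and DCN was at 0 in siCtrl. Their part in the results below was not tested. In bulk RNA, fewer cells of a type and less RNA per cell cannot be told apart.

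The scale of the table bears on every fold change that follows. CPM values of the listed genes did not sum to the full total: in siCtrl they held 65.1 ± 0.736% of it, siMYCN had 62.4 ± 0.979%, siHAND2 59.4 ± 2.39% and siMYCN+siHAND2 51.4 ± 7.04%, where replicates 1, 2 and 3 stood at 58.4%, 51.4% and 44.3%. The median log2 change against siCtrl over all tested genes was 0.01, -0.14 and -0.28 in the 3 knockdown groups. After dividing each sample by its median ratio to the other samples it was 0.01, 0.01 and 0.05. Fold changes are given on the deposited scale, as log2(CPM + 1), and the value after this rescaling is added where it changes a call. Estimates that were called on neither scale and changed sign between them are given with the dependence on processing. A change was called when limma's Benjamini-Hochberg adjusted p over all 12680 tested genes (12693 after rescaling) was under 0.05.

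Counted over the 8 tested genes, siMYCN lowered 3 (LIN28B, IGF2BP1 and IGF2BP2; 37.5%) and raised none; of all genes tested, 16.3% were called lower and 17.4% higher. HMGA1 joined them after rescaling, and likewise with the replicate number as a block, which makes 4 of 8 (50%) each time, against 22.4% and 18.6% of all genes lower. In siHAND2 limma called 0 of the 8, where 42.7% of all genes were called (12.3% higher and 30.4% lower). LIN28B alone of the 8 had an unadjusted p under 0.05 there. With the replicate block it was called lower (limma adjusted p = 0.0332). After rescaling DICER1 was called higher in siHAND2, as were 26% of all genes. In siMYCN+siHAND2, 6 of the 8 were lower (LIN28B, HMGA1, IGF2BP1, IGF2BP2, IGF2BP3 and DIS3L2; 75%) and LMO1 was higher, against 50.1% lower and 17.4% higher over all genes. After rescaling 4 were lower (LIN28B, HMGA1, IGF2BP1 and IGF2BP3; 50%) and LMO1 was still higher, against 32.9% and 37.8% of all genes. The median log2 change of the 8 genes was -0.27, -0.11 and -0.48 in the 3 groups in turn, and -0.26, 0.05 and -0.15 after rescaling. These 3 comparisons share the siCtrl samples. LMO1 was tested only because of its levels in the groups with siHAND2, so its calls in this and later counts are description only.

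**Figure D2:**
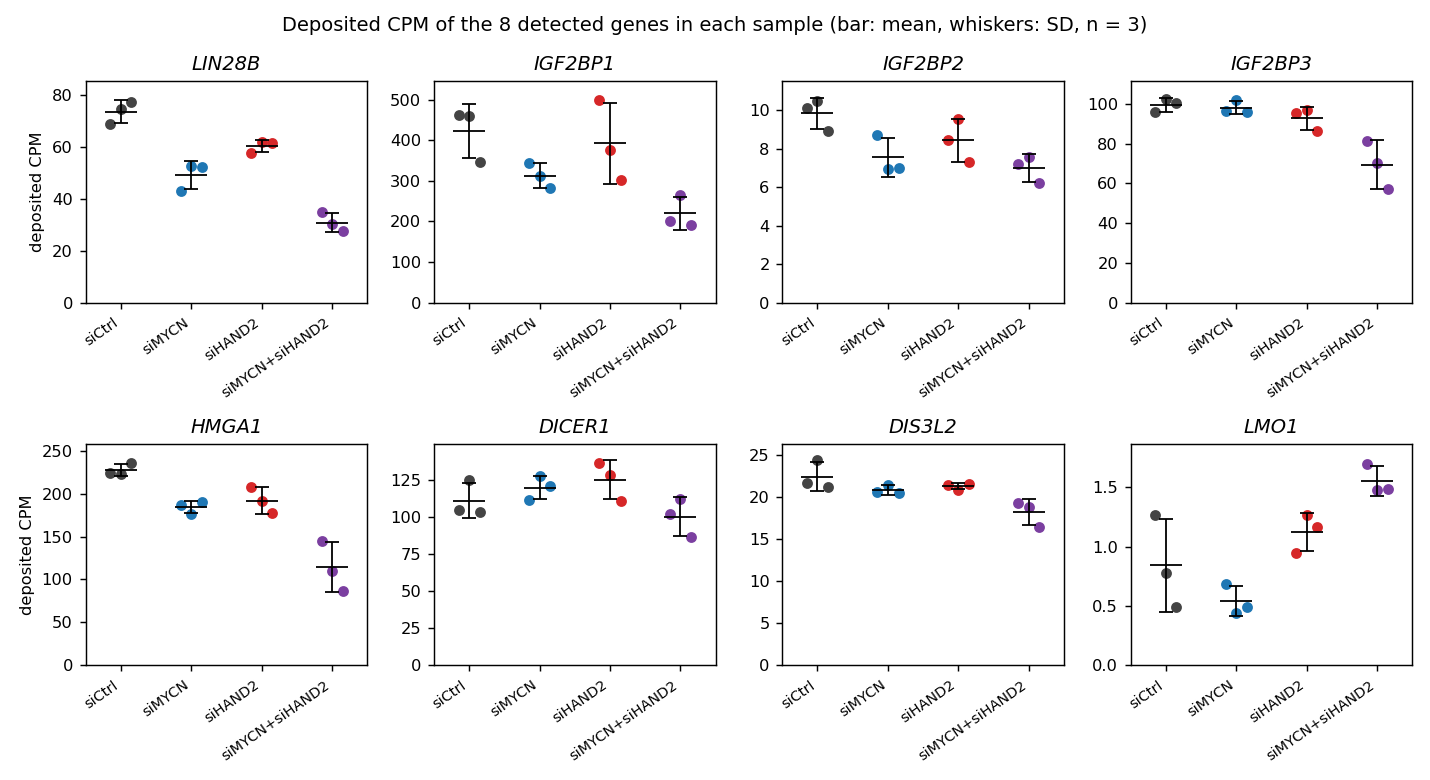
Deposited CPM of the 8 detected genes in each of the 12 samples, 1 panel per gene, with the y axis from 0. Points are samples in replicate order, bars are group means and whiskers the SD (n = 3). LIN28B is lowest in the 3 combined knockdown samples (27.4 to 34.8 CPM), where LMO1 is highest (1.48 to 1.70 CPM).

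LIN28B (chr6:105404923-105531208, + strand, hg19) was lower in siMYCN and lowest in the combined knockdown. Its values were 68.8, 74.4 and 77.4 CPM in siCtrl, 43.1, 52.7 and 52.0 in siMYCN, 57.5, 61.7 and 61.6 in siHAND2, and 34.8, 30.1 and 27.4 in siMYCN+siHAND2. On the deposited scale the ranges of no 2 groups overlapped, and their order was siCtrl, siHAND2, siMYCN, combined. siMYCN left 67.0% of the siCtrl mean and the combination 41.8%.

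In the fit, LIN28B fell by 0.57 (SE 0.12) on the log2 scale in siMYCN (limma adjusted p = 4.24e-04) and by 1.24 in siMYCN+siHAND2 (limma adjusted p = 8.61e-10). After rescaling the combined change was -0.88 and stayed called (limma adjusted p = 2.48e-07). Of all tested genes, 4.94% had a change at or below that of LIN28B in siMYCN and 7.45% in the combined group.

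The siHAND2 estimate of LIN28B was -0.28, with a 95% interval of -0.52 to -0.04, and missed the threshold (limma adjusted p = 0.0527). It passed when only the 2 groups were fitted (limma adjusted p = 0.00365), and without siMYCN+siHAND2 replicate 1 (limma adjusted p = 0.0133) or replicate 3 (limma adjusted p = 0.00981). After rescaling the estimate was -0.12 (limma adjusted p = 0.229) and the siHAND2 samples, at 57.1, 61.9 and 65.3, overlapped those of siCtrl, at 62.3, 67.6 and 71.2. With the replicate block it was called on the deposited scale (limma adjusted p = 0.0332) and not after rescaling (limma adjusted p = 0.0885). The estimate was thus called on neither scale in the fit of all 12 samples without the block. Its call depended on the samples fitted and on the block.

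Adding siHAND2 to siMYCN lowered LIN28B by a further 0.66 (limma adjusted p = 3.41e-05), or 0.32 after rescaling (limma adjusted p = 0.00447). MYCN itself was also lower there, at -0.51 (limma adjusted p = 7.01e-04), and -0.16 after rescaling (limma adjusted p = 0.0534). On the deposited scale the comparison thus did not hold MYCN equal, and the part of MYCN in the further fall was not tested. In that comparison 4 of the 8 genes were lower (LIN28B, HMGA1, IGF2BP1 and IGF2BP3) and LMO1 was higher, against 50% and 8.92% of all genes. IGF2BP1, at -0.52 (limma adjusted p = 0.00721), was not called there after rescaling (-0.17, limma adjusted p = 0.395). Adding siMYCN to siHAND2 changed LIN28B by -0.95 (limma adjusted p = 7.79e-07), and 1.79% of tested genes had a change as low or lower; 5 of the 8 genes were called there, the same 4 and DICER1, all lower, against 31.5% of all genes lower. HAND2 itself was at 0.23 there (limma adjusted p = 0.129), and at 0.43 after rescaling, where it was called higher (limma adjusted p = 0.00157). After rescaling the comparison thus did not hold HAND2 equal, and the part of HAND2 was not tested. IGF2BP3, at -0.43 in the combination against siHAND2 (limma adjusted p = 0.00642), missed the threshold when only those 2 groups were fitted (limma adjusted p = 0.0527). Between the single knockdowns LIN28B was lower in siMYCN by an estimate of -0.29 (limma adjusted p = 0.0529), which passed with the replicate block (limma adjusted p = 0.0322) and after rescaling, at -0.44 (limma adjusted p = 6.76e-04). In that comparison 1 of the 8 genes was called, LMO1, against 35% of all genes, and 5 of 8 after rescaling (LIN28B, HMGA1, IGF2BP1, IGF2BP2 and LMO1) against 44.5%. With the block 3 of 8 were called (LIN28B, IGF2BP1 and LMO1) against 40.7%.

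The paralogue LIN28A was near the detection limit, at 0.0740 ± 0.0743 CPM in siCtrl and 0.119 ± 0.0280 CPM at most, in siHAND2. A count of 3 reads corresponds to 0.0468 to 0.0949 CPM in these libraries. The siHAND2 samples, at 0.0883 to 0.143 CPM, were at or above that limit.

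The 3 IGF2BP genes encode RNA-binding proteins that stabilise bound mRNAs, and IGF2BP1 was the most abundant of them. IGF2BP1 (chr17:47074774-47133508, + strand) was at 462, 461 and 345 CPM in siCtrl, 344, 311 and 283 in siMYCN, 499, 376 and 302 in siHAND2, and 201, 265 and 192 in siMYCN+siHAND2. The combined samples were all below every other sample. The siHAND2 samples spread more widely than those of siCtrl, and the highest siMYCN sample lay just under the lowest siCtrl sample.

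IGF2BP1 fell by 0.94 (SE 0.16) on the log2 scale in the combined knockdown (limma adjusted p = 1.08e-05; -0.58 and 0.00518 after rescaling). Its change in siMYCN was -0.42 (limma adjusted p = 0.0402). That call was lost when siCtrl replicate 1 or 2, siMYCN replicate 2 or 3, or combined replicate 1 was left out, with limma adjusted p between 0.0508 and 0.157. The siHAND2 estimate was -0.12 (limma adjusted p = 0.552; 0.035 and 0.870 after rescaling). Between the single knockdowns the estimate was -0.30 in siMYCN (limma adjusted p = 0.145), which passed with the replicate block (limma adjusted p = 0.0416) and after rescaling, at -0.45 (limma adjusted p = 0.0365).

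IGF2BP3 (chr7:23349828-23509996, - strand) showed another pattern. Its values were 95.8, 102 and 100.2 CPM in siCtrl, 96.3, 102 and 95.9 in siMYCN, 95.5, 96.7 and 86.2 in siHAND2, and 81.4, 70.1 and 56.9 in siMYCN+siHAND2. The 2 single knockdowns overlapped siCtrl and the combined samples lay below all others. The fitted change was -0.02 in siMYCN (limma adjusted p = 0.913), -0.10 in siHAND2 (limma adjusted p = 0.526; 0.058 and 0.365 after rescaling) and -0.53 in the combination (limma adjusted p = 4.33e-04). After rescaling, the combined change was -0.17 (limma adjusted p = 0.00844), with samples at 82.1, 81.0 and 78.1 against 86.7, 92.9 and 92.2 in siCtrl. On the deposited scale the combined samples stood in the order of their share of listed genes for IGF2BP3, and also for LIN28B, HMGA1 and DIS3L2. For IGF2BP1, IGF2BP2, DICER1 and LMO1 they did not. The part of that share in the changes was not tested.

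IGF2BP2 (chr3:185360919-185542845, - strand) was the least abundant of the 3, at 10.1, 10.5 and 8.94 CPM in siCtrl, 8.73, 6.94 and 6.99 in siMYCN, 8.45, 9.53 and 7.31 in siHAND2, and 7.22, 7.57 and 6.19 in siMYCN+siHAND2. The siMYCN and combined samples lay below siCtrl and the siHAND2 samples overlapped it. IGF2BP2 fell by 0.35 in siMYCN (limma adjusted p = 0.0283), a call lost without siCtrl replicate 1 or 2 or siMYCN replicate 2 or 3 (limma adjusted p between 0.0923 and 0.127). Its combined change of -0.44 (limma adjusted p = 0.00234) was -0.12 after rescaling and was then not called (limma adjusted p = 0.295). An antisense gene overlaps the IGF2BP2 locus at a mean of 0.0154 CPM, and the sources do not say whether counting used strand.

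**Figure D3:**
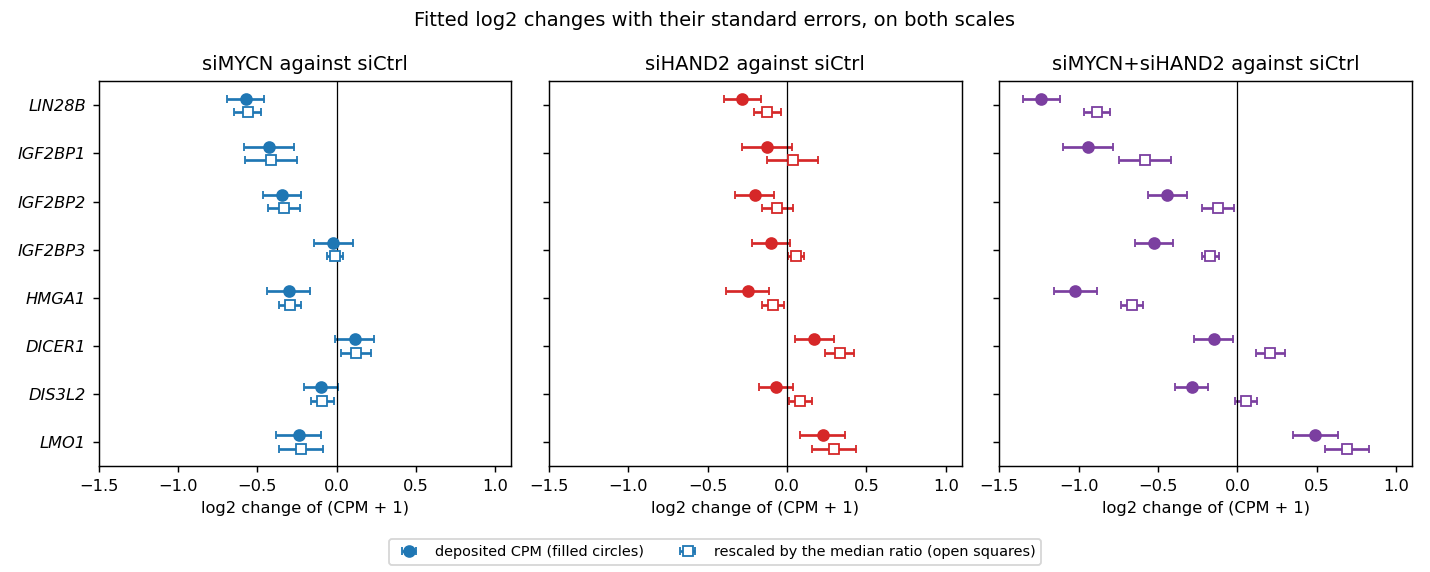
Fitted log2 change of (CPM + 1) against siCtrl for the 8 tested genes, 1 panel per knockdown group, with whiskers of 1 standard error. Filled circles are the deposited scale and open squares the values rescaled by the median ratio. In the combined knockdown LIN28B, HMGA1 and IGF2BP1 stay below 0 on both scales (-0.88, -0.66 and -0.58 after rescaling). IGF2BP2 and IGF2BP3 do so by less (-0.12 and -0.17 after rescaling). LMO1 stays above 0, while DICER1 and DIS3L2 cross it.

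HMGA1 (chr6:34204577-34214009, + strand), which encodes a chromatin protein that binds AT-rich DNA, was lowest in the combined knockdown. It was at 224, 223 and 236 CPM in siCtrl, 187, 177 and 190 in siMYCN, 207, 191 and 177 in siHAND2, and 145, 110.4 and 87.0 in siMYCN+siHAND2. The samples of every knockdown group lay below those of siCtrl, and the combined samples below those of both single knockdowns, which overlapped each other. HMGA1 fell by 1.02 (SE 0.14) in the combination (limma adjusted p = 3.51e-07; -0.66 and 1.06e-06 after rescaling), and 50.1% of its siCtrl mean remained.

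In siMYCN the HMGA1 estimate of -0.30 missed the threshold (limma adjusted p = 0.0890). It passed with the replicate block (limma adjusted p = 0.0379) and after rescaling (-0.29, limma adjusted p = 0.00367). In siHAND2 the estimate was -0.25 (limma adjusted p = 0.144), and -0.09 after rescaling (limma adjusted p = 0.312), where the siHAND2 samples overlapped siCtrl.

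HMGA2 (chr12:66218240-66360072, + strand), the relative of HMGA1 with 4 let-7 matches, was at 0 CPM in 11 samples and at 0.0259 CPM, about 1 read, in siMYCN+siHAND2 replicate 2. The limit that a count of 0 allows, 3 reads, was 0.0468 to 0.0949 CPM per sample. HMGA2 was therefore not detectable at this depth in any group, and no fold change is given. These limits cover counting error only.

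The direction of DICER1 (chr14:95552565-95624348, - strand) in the combination depended on the scale. It was at 105, 124 and 103 CPM in siCtrl, 111, 127 and 120.3 in siMYCN, 136, 128 and 111 in siHAND2, and 102, 112 and 86.0 in siMYCN+siHAND2. On the deposited scale all 3 knockdown groups overlapped siCtrl. After rescaling the siHAND2 samples, at 117 to 135, lay above those of siCtrl, at 94.7 to 113. The siMYCN estimate was 0.11 (limma adjusted p = 0.520), and 0.12 after rescaling (limma adjusted p = 0.297). In siHAND2 the estimate of 0.17 (limma adjusted p = 0.269) became 0.33 after rescaling and was then called (limma adjusted p = 0.0082). In the combination it went from -0.15 (limma adjusted p = 0.284) to 0.21 (limma adjusted p = 0.0584). The fall of 0.32 in the combination relative to siHAND2 (limma adjusted p = 0.039) was not called after rescaling (-0.12, limma adjusted p = 0.281). It was also lost without siCtrl replicate 1, any 1 siMYCN sample, siHAND2 replicate 1 or 2, or combined replicate 3 (limma adjusted p between 0.0513 and 0.169).

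DIS3L2 (chr2:232826293-233208679, + strand) lay in a narrow range, at 21.7, 24.4 and 21.2 CPM in siCtrl, 20.6, 21.5 and 20.4 in siMYCN, 21.4, 20.9 and 21.6 in siHAND2, and 19.3, 18.9 and 16.4 in siMYCN+siHAND2. The combined samples were below all others on the deposited scale. The combined change was -0.29 (limma adjusted p = 0.0188); it was 0.05 after rescaling (limma adjusted p = 0.504), and the call was also lost without siCtrl replicate 2 (limma adjusted p = 0.103) and with only the compared groups fitted (limma adjusted p = 0.107). No other estimate for DIS3L2 against siCtrl was called.

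**Figure D4:**
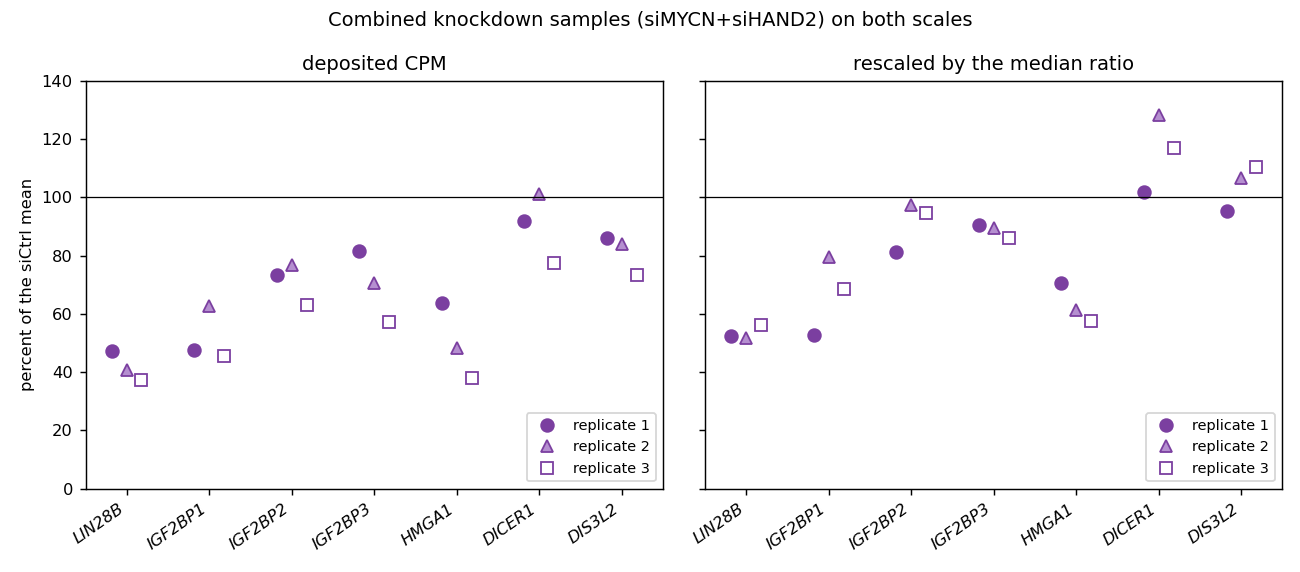
Values of 7 genes in the 3 combined knockdown samples as percent of the siCtrl mean (line at 100), on the deposited scale (left) and after rescaling by the median ratio (right). Symbols are the 3 replicates. After rescaling, LIN28B has a mean of 53.4% of siCtrl and HMGA1 of 63.1%, while DIS3L2 is at 104% and DICER1 at 116%.

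LMO1 (chr11:8245851-8290183, - strand) rose in the combined knockdown on both scales. It was at 1.27, 0.776 and 0.488 CPM in siCtrl, 0.686, 0.445 and 0.494 in siMYCN, 0.949, 1.27 and 1.17 in siHAND2, and 1.70, 1.48 and 1.49 in siMYCN+siHAND2. These correspond to 18 to 109 reads per sample. The combined samples lay above all others and the siHAND2 samples above all siMYCN samples, while siCtrl overlapped both single knockdowns. Counting error alone gives siCtrl replicate 1 a 95% exact Poisson interval of 0.927 to 1.69 CPM and replicate 3 one of 0.324 to 0.705 CPM, so the siCtrl samples differed by more than counting error.

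LMO1 rose by 0.49 (SE 0.14) on the log2(CPM + 1) scale in the combination (limma adjusted p = 0.00354; 0.69 after rescaling), a scale that understates changes near 1 CPM; the combined mean was 184% of siCtrl. With a pseudocount of 0.1 the change was 0.89 (limma adjusted p = 0.00514). LMO1 passed the filter of 1 CPM through its means of 1.13 CPM in siHAND2 and 1.55 in the combination. Its means were 0.843 CPM in siCtrl and 0.542 in siMYCN. The high values that let it be tested are also those compared with siCtrl and siMYCN. The p-values of LMO1 between groups with and without siHAND2 are therefore given as description only. Against siMYCN, LMO1 was higher by 0.73 in the combination (limma adjusted p = 1.07e-04), and 97.5% of tested genes had a change at or below that. LMO1 was lower in siMYCN than in siHAND2 by 0.46 (limma adjusted p = 0.012), a call that was lost without siMYCN replicate 2 (limma adjusted p = 0.0537) or siHAND2 replicate 2 (limma adjusted p = 0.053).

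Neither single knockdown moved LMO1 past the threshold against siCtrl. The estimates were -0.24 in siMYCN (limma adjusted p = 0.201) and 0.23 in siHAND2 (limma adjusted p = 0.203), which passed without siCtrl replicate 1 (0.39, limma adjusted p = 0.0422). The combination exceeded siHAND2 alone by 0.27 (limma adjusted p = 0.136), or 0.39 after rescaling (limma adjusted p = 0.0291).

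Per kb of canonical transcript, the order of the levels in siCtrl was HMGA1 (119 CPM per kb), IGF2BP1 (48.0), IGF2BP3 (23.3), LIN28B (13.5), DICER1 (10.7), DIS3L2 (6.66), IGF2BP2 (2.30), LMO1 (0.652) and HMGA2 (0). LIN28B, at 12.6 to 14.2 CPM per kb, and DICER1, at 9.95 to 12.0, were the closest neighbours by the ratio of their means and did not overlap over the 3 siCtrl samples. The order rests on 1 transcript length per gene.

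Whether the 2 knockdowns added up was asked with the interaction term, the combined change minus the sum of both single changes. No gene of the 8 was called, where 4.01% of all genes were; 5 had an unadjusted p under 0.05 in limma. After rescaling none of the 8 was called, where 6.15% of all genes were, and 3 had an unadjusted p under 0.05. The estimate for LIN28B was -0.38, with a 95% interval of -0.72 to -0.04 (limma adjusted p = 0.186), and -0.20 after rescaling (-0.45 to 0.05). LMO1 had the highest estimate of the 8, 0.51 (limma adjusted p = 0.155), and IGF2BP3 was at -0.41 (limma adjusted p = 0.177). Missing the threshold does not show that the changes add up.

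The number of interaction calls depended on 1 library. Without siMYCN+siHAND2 replicate 1, the library with the highest share of listed genes in its group, LIN28B (-0.47, limma adjusted p = 0.0165), HMGA1 (-0.66, limma adjusted p = 0.00508), IGF2BP3 (-0.53, limma adjusted p = 0.00949) and DICER1 (-0.45, limma adjusted p = 0.0453) were called, as were 35% of all genes. With that library left out and rescaling, HMGA1 was called (limma adjusted p = 0.0166) as were 11.3% of all genes. The part of the listed share in these calls was not tested.

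Around the 9 genes, the wider let-7 pathway was followed in 28 tested genes of microRNA processing and let-7 control, LIN28B, DICER1 and DIS3L2 among them. In siMYCN, 1 rose and 6 fell; in siHAND2, 2 rose and 5 fell; in the combination, 2 rose and 16 fell. Of all genes, 17.4% rose and 16.3% fell in siMYCN, 12.3% and 30.4% in siHAND2, and 17.4% and 50.1% in the combination. After rescaling the combined split was 9 higher and 11 lower, where 37.8% of all genes were higher and 32.9% lower. The median log2 change in the combination was -0.31 beside -0.28 over all genes, and 0.03 beside 0.05 after rescaling.

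Within that list, XPO5, which exports precursor microRNAs from the nucleus, was at 159 ± 8.70 CPM in siCtrl and 71.6 ± 11.7 CPM in the combination, a change of -1.15 (limma adjusted p = 8.91e-09; -0.79 after rescaling). TRIM25, an RNA-binding ubiquitin ligase that acts with LIN28A and TUT4 on pre-let-7, went from 51.6 ± 3.94 to 21.4 ± 4.14 CPM (-1.25, limma adjusted p = 6.38e-09; -0.90 after rescaling). RAN, the GTPase that drives nuclear export, fell by 1.13 (limma adjusted p = 1.03e-08). These 3 genes also fell less far after rescaling but were called on both scales.

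The uridylase TUT7 (row ZCCHC6) and TUT4 (row ZCCHC11) did not follow LIN28B. ZCCHC6 was at 18.2 ± 0.328 CPM in siCtrl and 20.1 ± 2.01 CPM in the combination (0.13, limma adjusted p = 0.272; 0.48 and 1.01e-05 after rescaling). ZCCHC11 was at 82.9 ± 3.63 and 80.8 ± 3.50 CPM (-0.04, limma adjusted p = 0.772; 0.32 and 0.00151 after rescaling). AGO4, an Argonaute that carries microRNAs, rose by 0.26 in the combination (limma adjusted p = 0.0348) and TNRC6B, which links Argonautes to the silencing machinery, by 0.36 (limma adjusted p = 0.0354).

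Of 5 tested let-7 host genes, MIRLET7BHG, the long RNA gene that hosts let-7a-3 and let-7b, rose from 8.95 ± 1.87 CPM in siCtrl to 12.3 ± 2.48 in siHAND2 (0.41, limma adjusted p = 0.028) and 13.7 ± 1.03 in the combination (0.58, limma adjusted p = 0.00148; 0.91 after rescaling). In siMYCN its estimate was 0.22 (limma adjusted p = 0.269). Of the 5, 1 was called higher and 0 lower in siMYCN, against 17.4% and 16.3% of all genes. The counts were the same in siHAND2, against 12.3% and 30.4%. In the combination 1 was higher and 2 lower (17.4% and 50.1% of all genes), and 2 and 0 after rescaling (37.8% and 32.9%). WDR82 was at 190 ± 5.61 CPM in siCtrl and 242 ± 5.91 in siMYCN. The protein-coding hosts HUWE1 and WDR82 were lower in the combination on the deposited scale (-0.38 and -0.36), with estimates of -0.02 and 0.00 after rescaling. A host transcript is not a measure of mature let-7.

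Among 40 tested genes known as let-7 targets, 6 of the genes above and MYCN itself included, 3 rose and 24 fell in the combination, with a median of -0.48 beside -0.28 over all genes; after rescaling 13 of 39 rose and 18 fell, with a median of -0.12 beside 0.05. Over all genes, 17.4% rose and 50.1% fell in the combination, and 37.8% and 32.9% after rescaling. In siMYCN 6 of the 40 rose and 10 fell (17.4% and 16.3% over all genes), and in siHAND2 5 rose and 12 fell (12.3% and 30.4%). The largest falls included cell-cycle genes: CDC25A, a phosphatase that activates cyclin-dependent kinases, went from 74.5 ± 2.91 to 18.3 ± 4.05 CPM (-1.98, limma adjusted p = 4.47e-13), and RRM2, a ribonucleotide reductase subunit, from 268 ± 13.8 to 83.9 ± 11.8 CPM (-1.67, limma adjusted p = 1.26e-11). Among the 3 that rose were IGF1R, the receptor of insulin-like growth factors (0.68, limma adjusted p = 4.66e-04), and IRS2, its adaptor (0.52, limma adjusted p = 0.00171). The list is mixed in direction.

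HIC2, IGDCC3 and NR6A1 share with LIN28B a 3′ UTR of at least 4 seed matches. HIC2 was at 24.0 ± 1.94 CPM in siCtrl and 26.8 ± 5.19 in the combination (0.14, limma adjusted p = 0.358; 0.48 and 8.63e-05 after rescaling). IGDCC3 was at 10.2 ± 0.614 and 10.1 ± 0.852 CPM (-0.01, limma adjusted p = 0.918; 0.32 and 0.00898 after rescaling). NR6A1 fell by 0.26 (limma adjusted p = 0.0475), and its estimate was 0.02 after rescaling. These 3 were picked after their values were seen, for their number of matches.

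**Figure D5:**
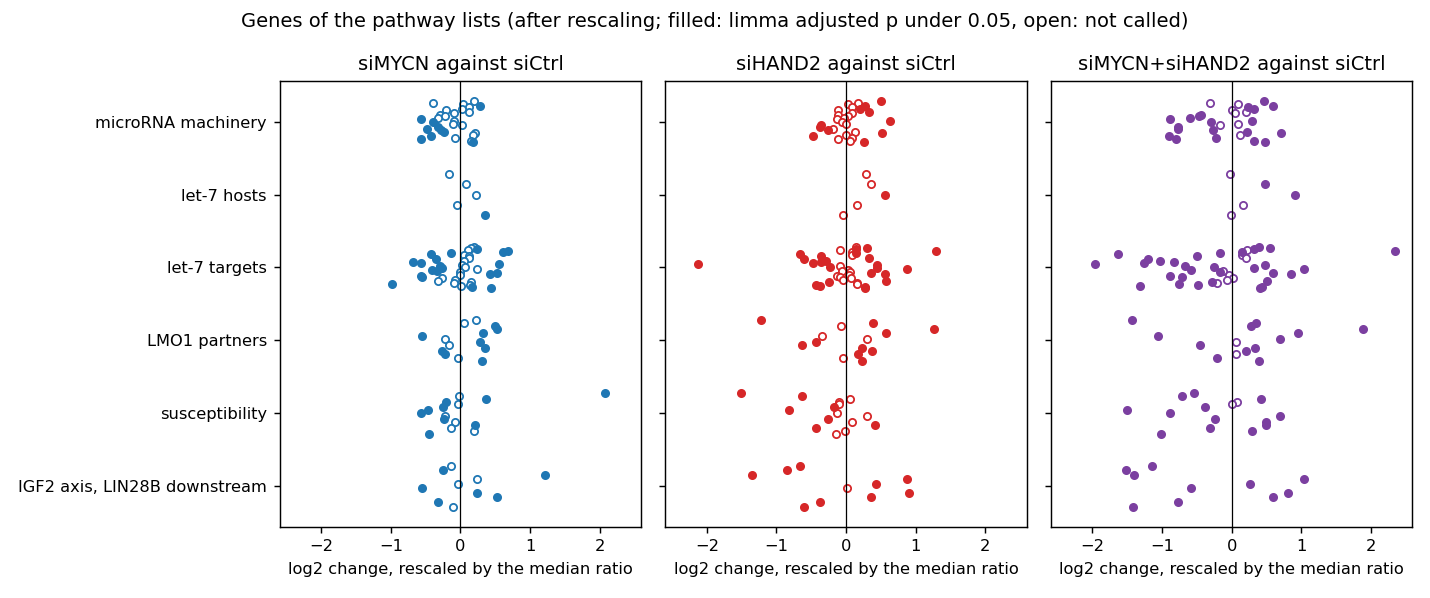
Rescaled log2 change of each knockdown group relative to siCtrl, for the tested genes of 6 lists (rows), 1 panel per knockdown group. Each point is a gene, filled where limma's adjusted p after rescaling was under 0.05. In the combined knockdown the let-7 targets lie on both sides of 0, HAND1 lowest (-1.96), with 13 called higher and 18 lower.

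For LMO1, the list of partners and family held 14 tested genes, LMO1 itself included, of which 3 rose and 6 fell in the combination, where 17.4% of all genes rose and 50.1% fell. After rescaling 8 rose and 4 fell, against 37.8% and 32.9%. LDB1, the adaptor that LIM-only proteins bind, stood at 95.8 ± 3.04 CPM in siCtrl. It reached 119 ± 6.37 CPM with siMYCN, 129 ± 3.52 with siHAND2 and 147 ± 27.2 with both siRNAs, and was called higher in all 3 (0.31, 0.42 and 0.60 with limma adjusted p of 0.046, 0.00641 and 1.12e-04). ISL1, a LIM-homeodomain factor that also binds LDB1, rose by 0.52, 1.11 and 1.54. The LDB1 paralogue LDB2 fell in all 3 knockdowns, by 1.22 in the combination; its call in siHAND2 (-0.46, limma adjusted p = 0.0141) was lost after rescaling (-0.35, limma adjusted p = 0.062). TAL1, a partner of LMO proteins in leukaemia, was at or near 0 in every sample.

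LIN28B and LMO1 are also 2 of 15 tested neuroblastoma susceptibility genes. In the combination 1 of the 15 rose, LMO1, and 10 fell, with a median of -0.57 beside -0.28 over all genes, of which 17.4% rose and 50.1% fell. After rescaling 5 rose and 8 fell, against 37.8% and 32.9%. KIF15, a mitotic kinesin, fell by 1.85 (limma adjusted p = 1.62e-12). ALK, the receptor tyrosine kinase mutated in familial neuroblastoma, went from 38.1 ± 1.46 CPM in siCtrl to 163 ± 3.78 with siMYCN, 11.3 ± 0.721 with siHAND2 and 20.3 ± 2.44 with both siRNAs.

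Of 10 tested genes of the IGF2 axis and downstream of LIN28B, 2 rose and 6 fell in the combination, with a median of -1.03 beside -0.28 over all genes, of which 17.4% rose and 50.1% fell. After rescaling 4 rose and 6 fell, against 37.8% and 32.9%, with a median of -0.68 beside 0.05. IGF2, the mRNA after which the IGF2BP proteins are named, was at 0.0375 ± 0.0163 CPM in siCtrl and not detectable above the limit of 3 reads. IGF1R was at 62.8 ± 9.81 CPM in siCtrl and 102 ± 23.5 in the combination. BIRC5, an inhibitor of apoptosis of dividing cells, fell by 1.87 in the combination (limma adjusted p = 5.05e-13) and 1.01 in siHAND2 (limma adjusted p = 1.33e-07).

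Among the 5 genes most like LIN28B across the 12 samples were NSUN6 (Pearson's r = 0.991), SERBP1 (0.986), EXOSC5 (0.986) and TFAP4 (0.986), out of 10192 genes with a mean of at least 5 CPM. SERBP1 went from 663 ± 34.9 CPM in siCtrl to 388 ± 20.5, 488 ± 16.8 and 232 ± 44.4 CPM in siMYCN, siHAND2 and the combination. After rescaling r was 0.870 for NSUN6 and 0.971 for SERBP1. For LMO1 they were LENG8 (0.899), ZNF708 (0.898), LINC01000 (0.896), ZNF586 (0.882) and ZFAS1 (0.862). These values describe 12 samples in 4 groups that also share their scale, and follow the differences between the groups.

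The promoters were read for CACGTG, the E-box that MYC proteins bind with MAX, and for CANNTG, the general E-box of basic helix-loop-helix factors such as HAND2; each CACGTG also counts as CANNTG, and both strands are read since the motifs are palindromes. RefSeq (GRCh38.p14) gave 14 windows for 7 of the 9 genes, and none was given for HMGA2 and IGF2BP1. Each window ran from 250 bases before the start to beyond it, and motifs were counted over the whole window. The sequences shown are only the 250 bases before the start. CACGTG was found in 2 windows, of LIN28B and IGF2BP3, shown with the motif in capitals. The LIN28B copy begins 47 bases before the start and those of IGF2BP3 174 and 146.
LIN28B start 2 (chr6:104956857-104957106, +): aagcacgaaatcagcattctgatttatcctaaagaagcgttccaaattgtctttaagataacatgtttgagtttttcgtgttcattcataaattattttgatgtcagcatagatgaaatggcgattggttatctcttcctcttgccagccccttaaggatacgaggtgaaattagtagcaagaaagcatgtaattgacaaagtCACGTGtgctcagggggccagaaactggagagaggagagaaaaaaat
IGF2BP3 start 1 (chr7:23470492-23470741, -): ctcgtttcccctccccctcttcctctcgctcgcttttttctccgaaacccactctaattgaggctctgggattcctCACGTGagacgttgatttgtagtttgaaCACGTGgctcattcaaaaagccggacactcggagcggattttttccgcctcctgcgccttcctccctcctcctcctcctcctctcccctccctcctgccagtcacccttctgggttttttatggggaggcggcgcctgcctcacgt
Of 35116 such windows of all genes, 7.26% held CACGTG and 0.664% held it at least 2 times. CANNTG was in 10 of the 14 windows, beside 68.7% of all windows. LIN28B, with 1 copy in the second of its starts, was called lower in siMYCN, and IGF2BP3, with 2 copies, was not. A match is a stretch of letters and not a binding site.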

How the data were processed

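RNA-seq of 12 IMR32 samples, 3 in each of 4 siRNA groups, was analysed from 1 deposited table of CPM values made by the authors. The submitters' processing notes name STAR 2.5.1, Partek and the build hg19 (GRCh37), without their roles; the counter, its use of strand and any filter are not given in the sources used here. A constant of 0.0001 in the deposited CPM values was subtracted. The commonest low value was taken as 1 read, which gave 31.6 to 64.2 M reads per sample; 88.9% to 90.5% of values under 20 reads and 80.3% to 81.6% of those from 20 to 200 reads were whole within 0.05 reads, so no count test was used.

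Genes with a mean of at least 1 CPM entered limma 3.58.1 (R 4.3.3) on log2(CPM + 1), 4 group means in 1 fit with a mean-variance trend, and Benjamini-Hochberg adjusted p over all tested genes. Alternatives changed the scale, pseudocount, filter, groups fitted, replicate block or left out 1 sample. The script was tested on simulated data. With 3 against 3 samples an exact permutation test of 1 gene cannot go below p = 0.1, so none is quoted. The 9 genes are described in full, and from each further list examples among the 3 genes with the largest and the 3 with the smallest change in the combined knockdown, and close neighbours in mechanism; TAL1, ALK, IGF2, HIC2, IGDCC3 and NR6A1 were added after their values were seen. The genes and lists were chosen with earlier results of these data known. Deviations of same-numbered samples correlated in every pair only for siMYCN against siCtrl (lowest r 0.147) and siMYCN against siHAND2 (lowest r 0.137), so there the numbers were taken to pair the samples, from the data and not the labels. The replicate block was fitted to all 12 samples at once, so it also covers the combined group, whose numbers did not correlate in every pair. Because the pairing was read from the same values, p-values with the block are only an alternative. Sequences are from RefSeq (GRCh38.p14: microRNAs, promoters) and GENCODE v44 lifted to GRCh37 (transcripts), matched by symbol. Some genes that the naming rules picked are not reported here.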

Additional observations from a re-analysis of the deposited data

How the results depend on the processing

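Depth limits what can be said of LMO1 (18 to 109 reads) and HMGA2, and the unequal share of listed genes limits every change against the combined group. The combined changes of LIN28B, HMGA1, IGF2BP1, IGF2BP3 and LMO1 kept their direction and call under both rescalings. Of all genes, siMYCN against siCtrl called 4273 and 6963 with only those 2 groups fitted, and siMYCN against siHAND2 called 4443 and 6730. Without 1 sample each, siMYCN called 3202 to 6499. The interaction called 508 genes, 154 with no filter on low values, 780 after median-ratio rescaling, 796 after rescaling to the listed sum, and 263 to 4443 without 1 sample each.

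With the replicate block, the interaction called 1282 genes, and 1264 with rescaling added, where siMYCN called 6475. LIN28B in siHAND2 was then called on the deposited scale (limma adjusted p = 0.0332). In that comparison the deviations of same-numbered samples did not correlate in every pair (r of 0.317, -0.0737 and 0.423 for replicates 1, 2 and 3). Whether the numbers pair these samples is therefore not known.

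Under median-ratio rescaling, with or without the block, these log2 estimates changed sign: in siHAND2, IGF2BP1 to 0.035, IGF2BP3 to 0.058 and DIS3L2 to 0.083; in the combination, DICER1 to 0.21 and DIS3L2 to 0.055; against siMYCN, the combination's IGF2BP2 to 0.21, DICER1 to 0.085 and DIS3L2 to 0.14; IGF2BP3 between the single knockdowns to -0.069; and the interaction of DIS3L2 to 0.062. Under the listed sum they were 0.0074, 0.031 and 0.057; 0.20 and 0.045; 0.16, 0.023 and 0.086; and 0.029 for that interaction, and IGF2BP3 in siMYCN was 0.041. Apart from DIS3L2 in the combination none of these was called on the deposited scale; the cause was not tested.

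The next ranges cover all fits that leave out 1 sample, on the deposited and the rescaled values together, so where the 2 scales already differed in sign (above) the range spans that difference. Within 1 scale, leaving out a sample changed the sign of DICER1 and HMGA1 between the single knockdowns, IGF2BP1 and IGF2BP2 in siHAND2, IGF2BP3 in siMYCN, IGF2BP2 in the combination against either single knockdown, and DIS3L2 in the combination against siHAND2; none of these was called on the deposited scale. Estimates ran from -0.27 to 0.0032 (DICER1) and -0.23 to 0.0021 (HMGA1) and -0.096 to 0.11 (IGF2BP3) between the single knockdowns. Against siCtrl they ran from -0.31 to 0.18 (IGF2BP1), -0.29 to 0.0014 (IGF2BP2), -0.13 to 0.081 (IGF2BP3) and -0.11 to 0.14 (DIS3L2) in siHAND2, and -0.048 to 0.0101 (IGF2BP3) in siMYCN. In the combination they ran from -0.24 to 0.29 (DICER1) and -0.33 to 0.11 (DIS3L2). For the combination against siMYCN they were -0.15 to 0.30 (IGF2BP2), -0.35 to 0.17 (DICER1) and -0.23 to 0.20 (DIS3L2), and against siHAND2 -0.32 to 0.014 (IGF2BP2) and -0.26 to 0.031 (DIS3L2). The DIS3L2 interaction ran from -0.18 to 0.12.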
